A study of Mus musculus with 3 samples.

Results

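MEIS2 peaks found in replicate 1 alone numbered 24474 of 73347 replicate 1 peaks on chromosomes 1 to 19 (33.4%, 95% Wilson interval 33.0 to 33.7). A peak was put in this set when it shared no base with any peak of MEIS2 replicate 2 or of the library made without a primary antibody. The 3 peak lists together held 158582 peaks on these chromosomes. The assay, CUT&Tag, brings a transposase to an antibody-bound protein in intact cells, and the transposase then cuts and tags the DNA next to it. Both MEIS2 libraries and the single no-antibody library came from the lateral ganglionic eminence (LGE) of CD1 mouse embryos at embryonic day 14.5. The labels name no mutation and no treatment for any library, and the MEIS2 libraries used a mouse polyclonal antibody against MEIS2. The labels give no embryo or litter for any library, so the spread between the MEIS2 libraries may be technical.

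MEIS2 belongs to the TALE class of homeodomain proteins, binds DNA together with PBX partners and is made in LGE progenitors and in the striatal projection neurons they give rise to. The LGE is the ventral forebrain region that produces the D1 and D2 classes of striatal projection neurons and, from its dorsal part, interneurons of the olfactory bulb. A peak is a stretch where a library has more tags than its own surroundings, or its genome-wide level, predict. No labelled cell type could be checked against marker expression, since the files hold peaks and no RNA.

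For comparison, 44673 reproducible peaks of replicate 1 overlapped a replicate 2 peak and no no-antibody peak, and 25944 of 76565 replicate 2 peaks (33.9%, 33.6 to 34.2) were found in replicate 2 alone. After duplicates were dropped, replicate 1 had 7618406 tags, replicate 2 had 6559629 and the no-antibody library had 6337375. The peak caller used each library's estimated fragment length as its smallest peak width, 172 bp in replicate 1 and 162 bp in replicate 2. What the depth and these widths contributed to the differences below was not tested. With 1 library on each side and sets chosen by overlap between libraries, differences are given as values with counting intervals, without a test. These intervals cover counting error only, and peaks are not biological replicates.

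Sequences were printed for 6 promoters that show what peaks found in replicate 1 alone covered at the starts of genes. Each window runs from 250 bp before to 50 bp after a promoter start listed by RefSeq (GRCm38.p6, the assembly that mm10 names), 5′ to 3′ on the gene's strand, and capitals mark the bases inside the peak. Zfp566 (chr7:30090461-30090760, minus strand), Zfp444 (chr7:6172263-6172562, plus strand) and Zfp266 (chr9:20521370-20521669, minus strand) encode zinc finger proteins and held the strongest such peaks over a promoter window among the genes of the lists described further on that would gain a gene-end peak. Neurod1 (chr2:79456587-79456886, minus strand) and Sp9 (chr2:73271676-73271975, plus strand) were the only such genes of the LGE regulator, TALE homeobox, interneuron and dorsal cortical lists with a covered window. The Meis2 window (chr2:116064570-116064869, minus strand) is shown for contrast, because there the capitals mark a reproducible peak. These last 3 windows were chosen after their values were seen.
Zfp566: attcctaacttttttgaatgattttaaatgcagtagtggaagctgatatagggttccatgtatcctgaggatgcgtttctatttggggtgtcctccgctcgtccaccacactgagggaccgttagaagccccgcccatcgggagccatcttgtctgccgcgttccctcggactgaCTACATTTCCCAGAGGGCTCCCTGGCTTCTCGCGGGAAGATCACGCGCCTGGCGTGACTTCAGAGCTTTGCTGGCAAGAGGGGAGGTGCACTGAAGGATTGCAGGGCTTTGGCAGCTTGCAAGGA
Zfp444: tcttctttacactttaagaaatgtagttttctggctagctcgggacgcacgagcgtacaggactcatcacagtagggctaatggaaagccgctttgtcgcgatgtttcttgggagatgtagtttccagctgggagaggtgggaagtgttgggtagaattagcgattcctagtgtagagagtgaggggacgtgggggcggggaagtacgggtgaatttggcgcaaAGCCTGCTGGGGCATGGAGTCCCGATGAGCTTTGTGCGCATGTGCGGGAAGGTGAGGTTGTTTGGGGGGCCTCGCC
Zfp266: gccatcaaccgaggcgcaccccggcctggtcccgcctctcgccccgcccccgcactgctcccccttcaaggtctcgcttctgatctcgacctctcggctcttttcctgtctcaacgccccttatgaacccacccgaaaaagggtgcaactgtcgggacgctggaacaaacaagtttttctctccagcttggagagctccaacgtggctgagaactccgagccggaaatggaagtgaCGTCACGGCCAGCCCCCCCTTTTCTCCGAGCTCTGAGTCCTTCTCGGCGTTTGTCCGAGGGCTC
Neurod1: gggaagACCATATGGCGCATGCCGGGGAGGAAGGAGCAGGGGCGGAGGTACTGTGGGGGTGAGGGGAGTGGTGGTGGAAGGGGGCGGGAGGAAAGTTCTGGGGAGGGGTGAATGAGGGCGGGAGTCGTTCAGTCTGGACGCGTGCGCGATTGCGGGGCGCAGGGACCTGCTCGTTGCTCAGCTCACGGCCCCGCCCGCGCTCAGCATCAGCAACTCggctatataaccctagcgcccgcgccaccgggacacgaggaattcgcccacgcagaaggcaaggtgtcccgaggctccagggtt
Sp9: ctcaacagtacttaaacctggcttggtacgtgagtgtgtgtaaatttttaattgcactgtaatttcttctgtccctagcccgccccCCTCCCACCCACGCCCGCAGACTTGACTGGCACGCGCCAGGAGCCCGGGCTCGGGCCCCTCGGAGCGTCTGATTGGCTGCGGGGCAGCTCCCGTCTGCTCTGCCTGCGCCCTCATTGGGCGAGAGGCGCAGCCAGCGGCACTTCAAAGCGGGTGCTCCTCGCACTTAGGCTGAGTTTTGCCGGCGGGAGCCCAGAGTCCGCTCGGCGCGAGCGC
Meis2: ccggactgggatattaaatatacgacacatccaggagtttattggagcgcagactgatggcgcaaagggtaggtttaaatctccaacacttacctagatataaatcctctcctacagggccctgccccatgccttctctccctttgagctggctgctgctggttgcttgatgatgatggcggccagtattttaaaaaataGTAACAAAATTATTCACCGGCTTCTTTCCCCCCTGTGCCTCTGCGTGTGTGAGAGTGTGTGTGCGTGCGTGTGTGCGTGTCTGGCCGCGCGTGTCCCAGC

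The replicate 1 peak covered 125, 76, 64, 210 and 214 of the 300 bases at Zfp566, Zfp444, Zfp266, Neurod1 and Sp9. Its fold enrichment is the pileup of tags over that expected locally, with 1 added to each. It was 10.7 at Zfp566, 9.97 at Zfp444, 9.41 at Zfp266, 5.53 at Neurod1 and 3.28 at Sp9. None of the 6 windows holds TGACAG, the core of the MEIS motif, or TAATTA, a homeodomain motif, on either strand. No match says only that these letters are not in these windows. At Zfp566, Zfp444 and Zfp266 the peak summit lay 166, 145 and 119 bp into the gene, outside the window, so only an edge of the peak was read. The windows hold 14, 16, 23, 26, 25 and 13 CG dinucleotides in the order printed, against a median of 14 over all promoter windows.

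Peaks found in replicate 1 alone were weak and narrow. Their median fold enrichment was 5.11 (95% interval 5.07 to 5.14) and their median pileup 9 tags, against 7.22 (7.18 to 7.26) and 17 tags for reproducible peaks of the same library. The middle 50% spanned fold enrichments of 4.29 to 5.88, and the highest was 15.9. Their median width was 213 bp (212 to 215), against 380 bp (377 to 383) for reproducible peaks. In all, 5765 of them (23.6%) were exactly at the caller's smallest width of 172 bp, against 4.27% of reproducible peaks. Together they covered 6.03 Mb, and only 5 were 1000 bp or wider. No member stood among the 1000 strongest replicate 1 peaks, and 72 stood among the 10000 strongest. Their median −log10 q was 4.94, against 10.7 for reproducible peaks.

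The share of replicate 1 peaks that lacked a partner fell with each step up in fold enrichment. Among replicate 1 peaks clear of the no-antibody list it was 66.5% below a fold enrichment of 4, 50.2% from 5 to 6, 21.0% from 7 to 8 and 1.30% at 10 and above. The same held for width. Of peaks at 172 bp, 75.1% were found in replicate 1 alone, against 28.2% of those from 300 to under 400 bp and 2.07% of those of 600 bp or more. Since the set was chosen by overlap, and a wide peak has more bases to overlap with, part of the width gradient is built into the rule.

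**Figure D1:**
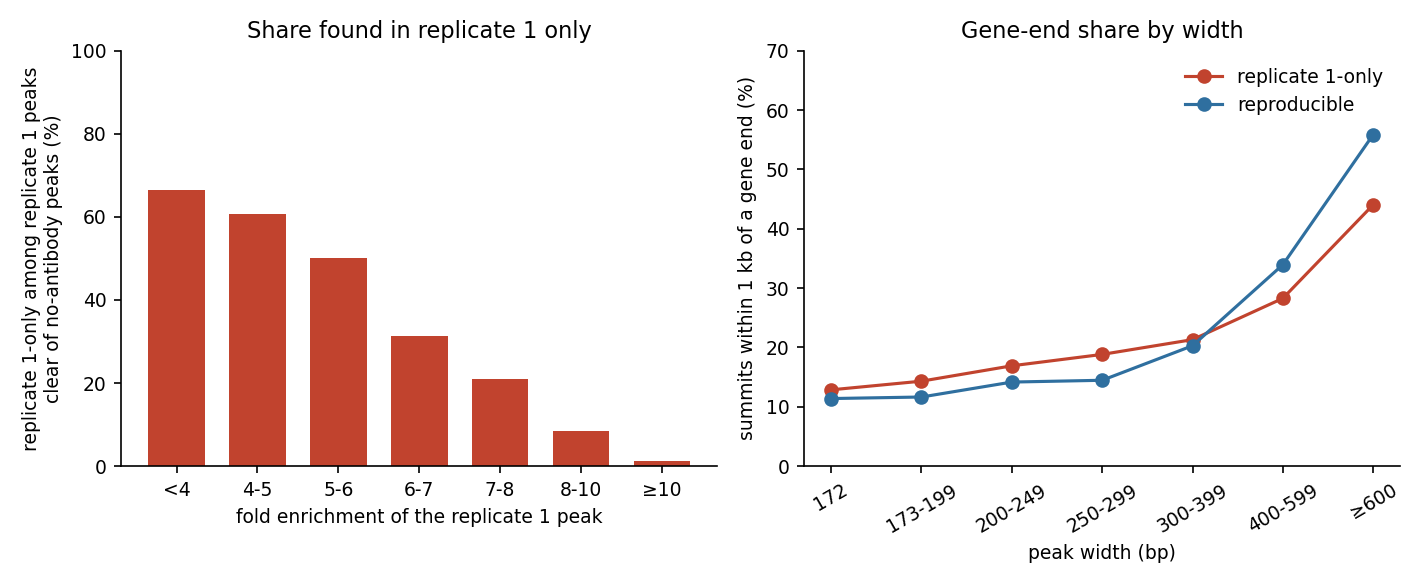
Left, bars give the percentage of replicate 1 peaks, clear of no-antibody peaks, that were found in replicate 1 alone, by fold enrichment; it falls from 66.5% below 4 to 1.30% at 10 and above. Right, points give the percentage of summits within 1 kb of a gene end by peak width in bp for replicate 1-only and reproducible peaks; the replicate 1-only points are the higher ones below 400 bp and the lower ones from 400 bp.

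The strongest members lay inside genes or between them, and none of the first 10 was at the end of a protein-coding gene. The first lay inside Edem1, which encodes a protein of endoplasmic reticulum quality control, at chr6:108846989-108847317. It had a fold enrichment of 15.9 and a pileup of 31 tags, and the nearest replicate 2 peak was 17796 bp away. Dscam, a cell adhesion gene of neurons, held the eighth (chr16:97121929-97122202, 13.5), with a replicate 2 peak with a pileup of 4 tags 10942 bp away. Zfp385b (chr2:77525065-77525435, 13.5) and Tmem260 (chr14:48475671-48475982, 13.4) held the ninth and the tenth. The other 6 lay outside protein-coding genes, though some were inside genes of other kinds. They were at chr6:147645172-147645585 (14.5, nearest protein-coding gene Ccdc91), chr8:87038023-87038342 (14.4, N4bp1), chr4:142346750-142347021 (14.3, Kazn), chr1:23060765-23061251 (14.1, Ppp1r14bl), chr12:47172902-47173185 (14.1, Nova1) and chr9:118375324-118375642 (13.5). The last of these lay 102696 bp from Eomes, a T-box gene of cortical intermediate progenitors. Across the 10, the nearest replicate 2 peak was 4203 to 30787 bp away.

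The widest members stood mostly at gene ends. The first, 1233 bp wide, lay at an end of Fam83g (chr11:61683899-61685131, fold enrichment 5.11), the second at an end of Sf3a2, a splicing factor gene (chr10:80797718-80798914, 1197 bp, 4.59). Coro2a (chr4:46601140-46602182, 1043 bp, 4.52) and Tert, the catalytic subunit of telomerase (chr13:73626508-73627545, 1038 bp, 5.89), had the fourth and the fifth, again at an end. The fold enrichments of these 4, 4.52 to 5.89, lay on both sides of the set's median of 5.11.

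Most members lay inside genes. By summit, 2622 of 24474 (10.7%, 10.3 to 11.1) were within 1 kb of an end of a protein-coding gene, 1608 (6.57%) within 1 kb of the end of another gene only, 12422 (50.8%) further inside a gene, 6370 (26.0%) outside but within 50 kb of a gene, and 1452 (5.93%) farther out. Further inside a gene lay 44.7% of peaks found in replicate 2 alone, 36.2% of reproducible and 34.3% of no-antibody peaks. How much of these chromosomes lies inside genes is not given here. The share at any gene end was 17.3% (16.8 to 17.8), against 29.4% (29.0 to 29.9) of reproducible peaks, 7.64% (7.32 to 7.97) of peaks found in replicate 2 alone and 2.43% (2.13 to 2.78) of no-antibody peaks. It was lower than in the reproducible set and higher than in the replicate 2-only set on 19 of 19 chromosomes. By chromosome it ran between 14.2% and 22.8% in the replicate 1-only set, between 4.88% and 11.7% in the replicate 2-only set and between 23.2% and 39.2% in the reproducible set. The sets found in 1 replicate alone were close in size and differed in position.

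**Figure D2:**
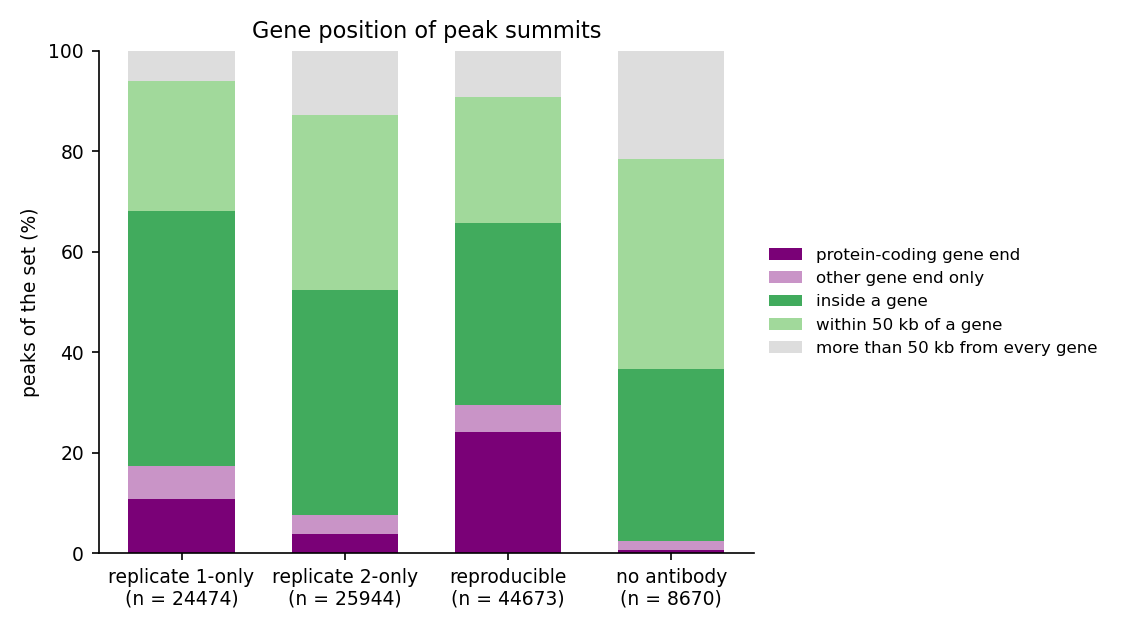
Stacked bars give the percentage of peaks of each set by gene position of the summit, for peaks found in MEIS2 replicate 1 alone, in replicate 2 alone, reproducible peaks and all no-antibody peaks. Both shades of purple together, the gene ends, reach 17.3%, 7.64%, 29.4% and 2.43%.

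Seen from each position, ends of protein-coding genes had the smallest share of peaks without a partner. There, 19.5% (18.9 to 20.2) of replicate 1 peaks clear of the no-antibody list were found in replicate 1 alone, against 43.4% (42.9 to 44.0) inside genes, 40.6% at the ends of other genes, 36.1% within 50 kb and 26.3% beyond. Width changed this picture. At a given width the replicate 1-only peaks were at gene ends slightly more often than the reproducible ones up to 400 bp: 12.9% against 11.4% at 172 bp, 18.8% against 14.5% from 250 to under 300 bp, and 21.3% against 20.3% from 300 to under 400 bp. Above that they were behind, with 28.3% against 33.9% from 400 to under 600 bp and 44.0% against 55.9% from 600 bp. At a given fold enrichment the reproducible peaks kept the higher share in all 7 ranges, for example 15.5% of replicate 1-only peaks against 24.9% of reproducible peaks from 5 to 6.

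At the ends of protein-coding genes the members had a median width of 248.5 bp, a median fold enrichment of 4.80 and a median pileup of 11 tags. Beyond 50 kb from every gene they were narrower but more enriched, with medians of 194 bp, 5.60 and 9 tags. The local expectation of the caller moved with position. Expected pileup plus 1, computed as pileup plus 1 over the deposited fold enrichment, had a median of 2.31 at protein-coding gene ends and 1.70 beyond 50 kb. The latter is the lowest value in the library and is 1 above its genome-wide expected pileup of 0.701. Over the whole set, 38.8% of members stood at that lowest value. Of replicate 2-only peaks, 70.3% stood at the lowest value of their own library (1.57, with a genome-wide expected pileup of 0.568).

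RefSeq lists promoter starts, with strand, for 16457 of 20665 protein-coding genes on chromosomes 1 to 19, which separates 5′ from 3′ ends. Within 1 kb of the 5′ end of such a gene lay 1405 members (5.74%, 5.46 to 6.04), against 17.8% (17.5 to 18.2) of reproducible and 1.70% (1.55 to 1.87) of replicate 2-only peaks. At 3′ ends the order differed. There, more than 1 kb from the 5′ end of every such gene, lay 689 members (2.82%, 2.62 to 3.03). The shares were 1.57% (1.46 to 1.69) of reproducible and 1.25% (1.12 to 1.39) of replicate 2-only peaks. The 5′ ends of other genes were not excluded. The members' share at 3′ ends was thus above that of reproducible peaks of the same library, a difference that was not tested. Around listed promoter starts the members peaked in the first 250 bp of the gene, which held 2.76% of them, with 1.35% in the 250 bp before the start. The reproducible set had 9.73% and 4.24% in those bins and the replicate 2-only set 0.563% and 0.301%.

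**Figure D3:**
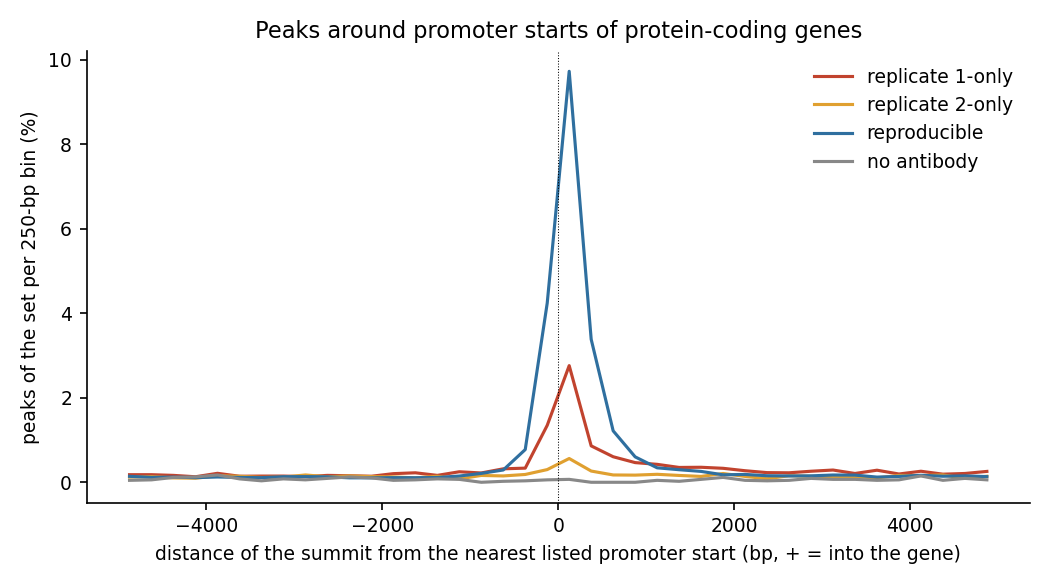
Lines give the percentage of each set's summits per 250-bp bin, by distance in bp from the nearest listed promoter start of a protein-coding gene, positive into the gene. The replicate 1-only line peaks at 2.76% just inside the gene, between the replicate 2-only line at 0.563% and the reproducible line at 9.73%.

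Of 20063 windows of protein-coding genes, 1091 overlapped a member and no reproducible peak. Their median GC content was 59.3% with 16 CG dinucleotides, against 65% and 25 in the 9375 windows with a reproducible peak and 48.3% and 4 in the 9396 windows with no MEIS2 peak of these sets. The 208 windows with a replicate 2-only peak and no reproducible peak had 57.7% and 13, with TGACAG in 19.7% and TAATTA in 3.37% of them. TGACAG, on either strand, was in 18.9% (16.7 to 21.3) of the member windows, in 14.9% (14.2 to 15.6) of the reproducible ones, in 21.8% of those with none and in 18.4% of all. TAATTA was in 2.29% (1.56 to 3.36), 1.40% (1.18 to 1.66), 7.87% and 4.48% of the same windows. These 2 motifs cannot share a base with each other. Their shares move against GC content from one group of windows to the next, and what composition contributes to them was not tested.

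At the ends of genes other than protein-coding ones, 822 of 1608 members (51.1%) were beside a long non-coding RNA gene and 571 (35.5%) beside a pseudogene, against 50.3% and 37.1% of 2352 reproducible peaks in that position. Small RNA genes were fewer. Of them, 80 members (4.98%) were beside snoRNA genes, against 54 of the 2352 reproducible peaks, 75 (4.66% against 3.44%) beside miRNA genes and 21 (1.31% against 1.11%) beside tRNA genes. The members' share was the lower one for snRNA genes (1.24% against 1.62%), rRNA genes (0.311% against 1.19%), genes classed as misc_RNA (0.373% against 0.850%) and transcribed pseudogenes (2.24% against 4.04%). A peak can stand beside genes of more than 1 kind.

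Most members were kilobases away from any replicate 2 peak. The median gap was 6832 bp (6703 to 6953), the middle 50% ran from 2460 to 14936 bp, and 3422 members (14.0%, 13.6 to 14.4) had a replicate 2 peak within 1 kb. That share depended on the thresholds. Under 50% reciprocal overlap it was 32.4%, raised by construction, because peaks that partly overlap a replicate 2 peak then count as close members. With a −log10 q of at least 5 in all lists it was 7.90%, measured to a replicate 2 list that the limit had thinned. Reproducible peaks give a yardstick, measured to the nearest replicate 2 peak that they do not overlap: their median was 8291 bp and 13.8% (13.5 to 14.1) were within 1 kb. Peaks of replicate 2 alone were farther from replicate 1, with a median of 10932 bp and 8.57% (8.24 to 8.92) within 1 kb. Of the 3422 close members, 2255 (65.9%) were next to a replicate 2 peak that overlapped another replicate 1 peak. The other 1167 (34.1%) were next to one with no replicate 1 partner. That is near the 33.9% of all replicate 2 peaks that were found in replicate 2 alone, a set that also excludes overlap with no-antibody peaks. Members at ends of protein-coding genes were close most often, with 23.6% (22.0 to 25.3) within 1 kb and a median gap of 4684 bp, against 12.3% and 6928 bp inside genes and 14.9% and 9920 bp beyond 50 kb.

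**Figure D4:**
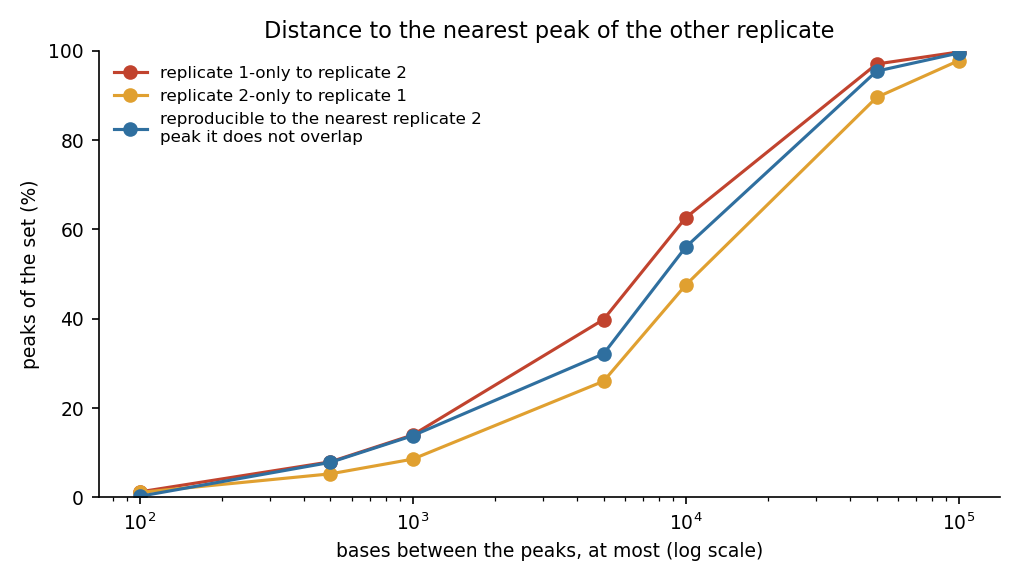
Lines give the cumulative percentage of peaks with a peak of the other replicate within a given number of bases (log scale). At 10000 bp the replicate 1-only line is at 62.6%, the replicate 2-only line at 47.5% and the reproducible line, measured to replicate 2 peaks it does not overlap, at 56.0%.

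At the boundary of the rule, 30 members had at most 10 bp between them and a replicate 2 peak, and 42 reproducible peaks shared at most 10 bp with one. Their median fold enrichments were 4.89 and 4.70, their median widths 227.5 and 271 bp, and 36.7% and 31.0% of them were at gene ends. The 5 closest members had 0 or 1 bp in between. They lay inside Slc26a8 (chr17:28684613-28685033, fold enrichment 5.29) and Tex14 (chr11:87467854-87468042, 4.24), 12086 bp from Skida1 (chr2:18031926-18032166, 4.01), 16896 bp from Mefv (chr16:3689920-3690240, 10.0) and 132311 bp from Api5 (chr2:94570454-94570627, 6.47). At the other extreme, the farthest members were 218167 and 213683 bp from replicate 2, nearest to Mup13 of the major urinary protein cluster (chr4:61180804-61180983 and chr4:61185113-61185467, both 5.88). The next was 197818 bp away near Vmn1r112, a vomeronasal receptor gene (chr7:20761180-20761854, 6.47). Ptprd, a receptor phosphatase gene of synapses, held the last ones, 191881 and 179844 bp away (chr4:77255415-77255672, 5.88, and chr4:77313066-77313252, 8.82).

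Chromosomes differed in how many of their replicate 1 peaks had no partner. The share was 27.3% on chromosome 3, 28.7% on chromosome 13 and 38.5% on chromosome 11, with a median of 34.1%. The median fold enrichment of members varied little, between 4.79 and 5.29. By gene, 7195 of 20665 protein-coding genes (34.8%) had a member's summit inside, 4152 of them exactly 1 and 490 of them 5 or more. The matching shares for the other sets are not given here, so these counts only describe the members. Camta1, a long gene for a calmodulin-binding transcription activator expressed in brain, held 34 in its 802 kb, beside 18 replicate 2-only and 29 reproducible peaks. Cdh23, an atypical cadherin gene, held 23 in 394 kb, beside 11 replicate 2-only and 15 reproducible peaks. Gm37013, Gm38666 and Gm38667 held 24, 23 and 22, but they are nested on chromosome 18, so the 22 are the same peaks in each.

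At Meis2 itself, 6 peaks of replicate 1 alone lay inside the gene, beside 2 reproducible ones inside and 1 outside. The one at the 5′ boundary of the gene table's entry, at chr2:116067143-116067522, had a fold enrichment of 5.31, a pileup of 17 tags and a summit 155 bp from that boundary. The nearest replicate 2 peak was 2489 bp away. The listed promoter start of Meis2 lies 2918 bp inside that boundary, and the reproducible peak at chr2:116064494-116064669 (fold enrichment 4.82), shown in capitals above, had its summit 26 bp from it. The other 5 replicate 1-only peaks were at chr2:115874244-115874469 (4.55), chr2:115881794-115882004 (6.78), chr2:115980734-115981017 (4.70), chr2:116060346-116060517 (4.77) and chr2:116063151-116063362 (3.87). Only 1 replicate 2-only peak lay within 50 kb of the gene.

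The Dlx genes, homeobox regulators of ventral forebrain neurons, had no replicate 1-only peak at an end. Dlx2, Dlx5 and Dlx6 had a reproducible summit 45, 561 and 717 bp from an end, and the nearest to an end of Dlx1 was 1377 bp away. Within 50 kb of Dlx1 and Dlx2 there was 1 replicate 1-only peak (chr2:71551853-71552330, fold enrichment 7.40), 5186 bp from the nearer end of Dlx2, beside 3 replicate 2-only and 7 reproducible peaks. Around Dlx5 and Dlx6 there were 3, at chr6:6837247-6837498 (4.12), chr6:6856112-6856283 (4.69) and chr6:6874105-6874276 (5.24), beside 1 replicate 2-only and 3 reproducible peaks. The last of these stood 433 bp from a replicate 2 peak.

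Accepting peaks of replicate 1 alone would give 1678 protein-coding genes a gene-end peak that they lack in the reproducible set. That is 17.6% of the 9552 such genes on chromosomes 1 to 19, and it would bring the genes with a gene-end peak to 12791 of 20665 (61.9%), against 11113 (53.8%) with reproducible peaks alone. The peaks of replicate 2 alone would add 600, or 6.28% of the 9552, and 142 genes would be added by both. The number depended on the thresholds: 50% reciprocal overlap gave 3159, a −log10 q of at least 5 in all lists gave 2910 and the same limit in replicate 1 only gave 1002. These settings also redraw the reproducible set, so the genes that lack a peak there are no longer the 9552. Under reciprocal overlap some counted peaks share bases with replicate 2, and the limit in all lists removes weaker replicate 2 partners. A further 1101 genes with a member at an end already had a reproducible peak there. The gained genes rest on 1694 peaks, of which 132 stand at more than 1 gained gene, and 164 genes have 2 or more members at their ends. Any replicate 2 peak, overlapping or not, was at an end of 170 of the 1678 (10.1%). A reproducible peak lay inside or within 50 kb of 1612 of the gained genes (96.1%), against 6652 of the 7874 genes not gained (84.5%). Of 1080 olfactory receptor genes among the 9552, only 7 were gained, and what this family contributes to that contrast was not tested. Median gene length was 13.7 kb for gained genes, 11.0 kb for genes not gained and 23.8 kb for genes with a reproducible gene-end peak.

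Of the 1320 gained genes with a listed strand, 1072 (81.2%, 79.0 to 83.2) had the peak at the 5′ end and 248 (18.8%) at the 3′ end alone, against 94.8% and 5.21% of 8837 genes with a reproducible gene-end peak. For 130 of the 1320 (9.85%), Meis2 among them, a reproducible peak already lay within 1 kb of a listed promoter start that is not at the gene table's boundary. Counted by listed promoter starts alone, a measure added after the data were seen, 1229 of 7273 genes without a reproducible peak there (16.9%) had a replicate 1-only peak and 338 (4.65%) a replicate 2-only peak.

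The gained genes with the strongest peaks were led by a pair that share one. Nup37, a nuclear pore gene, and Parpbp, a regulator of homologous recombination, had a peak at chr10:88146730-88147115 with a fold enrichment of 12.9 and a pileup of 21 tags, 3 and 10 bp from their 5′ ends. The nearest replicate 2 peak was 40659 bp away. Next came Brca2, a DNA repair gene (chr5:150522499-150522897, 11.6), Stard4, which encodes a cholesterol carrier (11.1), Zfp566 (10.7) and Crym, the gene of the thyroid hormone-binding crystallin mu (10.5). Slc12a8 (10.5), Calcr, the calcitonin receptor gene (10.4), Smim43 (10.3) and Gfra3, a receptor gene of the GDNF family (10.2), completed the first 10. At Gfra3 a replicate 2-only peak stood 239 bp from the member, and at the other 9 no replicate 2 peak was at the same gene's ends.

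Among LGE regulators, 18 of 26 genes had a reproducible gene-end peak and 3 of the other 8 gained one (37.5%, 13.7 to 69.4), an interval that includes the 17.6% of all such genes, as do those of the other lists in this paragraph. Besides Meis2 these were Six3, a homeobox gene of D2 neuron differentiation, with a peak at its 3′ end (fold enrichment 5.01), and Sp9, a zinc finger gene required for D2 neurons, with one 39 bp from its 5′ end (3.28). Six3 and Sp9 are also the gained 2 of 4 in the D2 neuron list. A replicate 2-only peak stood at an end of Six3 too, and by listed promoter starts both Six3 and Sp9 gained a peak. Of 5 D1 neuron markers without a reproducible gene-end peak, 1 gained one, and of 7 such spiny neuron and GABA markers 1 did, Gng7 (3.74), a G protein subunit gene. Radial glia and progenitor genes gained 3 of 8, namely Top2a, a topoisomerase of dividing cells (4.70), Nr2e1, a nuclear receptor of neural stem cells (4.47), and Hes1, the repressor downstream of Notch (4.38). Hes1 and Dll3, a divergent Notch ligand (4.35), were the gained 2 of 6 in the Notch list. These folds ran from 3.28 at Sp9 to 5.31 at Meis2, against the set's median of 5.11.

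Among TALE homeobox genes, 4 of 7 gained a gene-end peak (57.1%, 25.1 to 84.2), against 17.6% of all genes without a reproducible one. The 4 were Tgif1, a repressor of the class (fold enrichment 7.18), Meis2, Mkx, a regulator of tendon cells (3.94), and Irx5, an Iroquois gene (3.49). Meis2 and Tgif1 already had a reproducible peak within 1 kb of a listed promoter start. None of the 10 genes of this list with a listed start lacked a reproducible peak there, so by that measure none could gain one. By the same measure 1 of 3 Wnt genes gained a peak, Wnt3, against 16.9% of all genes without a reproducible peak there. In the Wnt list 3 of 6 gained a gene-end peak (50%, 18.8 to 81.2). These were Rspo3, an amplifier of Wnt signalling (6.89), and the ligand genes Wnt3 (5.73) and Wnt5a (3.96). Retinoic acid genes gained 2 of 6 (33.3%, 9.68 to 70), Cyp26c1, which encodes a retinoic acid-degrading enzyme (6.38), and Crabp2, a retinoic acid carrier (5.87). Axon guidance genes gained 2 of 13 (15.4%, 4.33 to 42.2), the ephrin receptor genes Epha4 (6.24) and Epha3 (4.70). The intervals of the retinoic acid and axon guidance lists include the 17.6%.

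Lists of neighbouring regions and other lineages gave small numbers. Dorsal cortical genes gained 2 of 8, Neurod1 (5.53) and Tbr1 (5.28), transcription factors of excitatory neurons. Tbr1 already had a reproducible peak at its listed start. Sox6 (3.53), a factor of interneurons from the medial ganglionic eminence (MGE), was the gained 1 of 5 in the MGE list. Sall1 (3.81) was the gained 1 of 5 in the dorsal LGE and olfactory bulb list, and Cspg4 (4.75), which encodes the NG2 proteoglycan, the gained 1 of 4 in the oligodendrocyte list. Both Sox6 and Sall1 also had a reproducible peak at a listed start. Genes of vessels and microglia gained 0 of 10, the listed GABA, glutamate and dopamine synapse genes 0 of 8 and chromatin regulators 0 of 5. By listed promoter starts 2 of 3 genes of the synapse list gained a peak, Drd3, a dopamine receptor gene, and Grik2, a kainate receptor gene. That list leaves out some receptor genes that gained a gene-end peak, such as Grm3, Gabrd and Gabrp, which were named after their values were seen. In the liver, muscle and pancreas list 2 of 13 gained one, Apoa1, an apolipoprotein gene (5.45), and Ckm, muscle creatine kinase (4.25). The interval of each list in this paragraph includes the 17.6% of all such genes.

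Larger gene families were counted in the same way. Of all genes without a reproducible gene-end peak, 17.6% gained one from replicate 1 alone and 6.28% from replicate 2 alone. Ribosomal protein genes gained 10 of 21 (47.6%, 28.3 to 67.6) from the replicate 1-only set and 1 of 21 from the replicate 2-only set. Among the 10 were Rpl26 (fold enrichment 8.06), which was also the 1 gained from the replicate 2-only set, Rpl4 (5.88) and Rpl35 (5.78). Keratin genes, which lie in clusters, gained 13 of 28 (46.4%, 29.5 to 64.2) and 4 of 28, led by Krt9 (7.06), Krt90 (7.05), Krt87 (6.64) and Krt84 (6.19). The 13 keratin genes rest on 14 different peaks and the 10 ribosomal protein genes on 12. By listed promoter starts 6 of 13 ribosomal protein genes and 10 of 22 keratin genes gained a peak, against 16.9% of all genes counted that way. Olfactory receptor genes went the other way, with 7 of 1080 gained (0.648%, 0.314 to 1.33) from replicate 1 alone and 22 of 1080 (2.04%) from replicate 2 alone, led by Olfr66 and Olfr725 (both 7.64), Olfr155 (6.47) and Olfr71 (5.05). Zinc finger genes gained 38 of 185 (20.5%, 15.4 to 26.9), led by Zfp566, Zfp444, Zfp266 and Zfp799 (7.64). Potassium channel genes gained 11 of 39 (28.2%, 16.5 to 43.8), led by Kcna5 (7.07), Kcnc2 (6.37), Kcnt2 (5.88) and Kcna1 (4.87). Hox genes gained 5 of 14 (35.7%, 16.3 to 61.2), with Hoxc4 (6.11), Hoxb6 (4.62), Hoxb8 (4.41) and Hoxd11 (4.39) in front. Cadherins and protocadherins outside the protocadherin clusters gained 2 of 19 (10.5%, 2.94 to 31.4), Pcdh20 (4.70) and Cdh15 (3.48). The intervals of the zinc finger, potassium channel, Hox and cadherin lists include the 17.6%. Clustered protocadherin genes, some of which gained a gene-end peak, were on no list. Kcnc2 and Hoxd11 already had a reproducible peak at a listed start, and Kcnc2 also had a replicate 2-only peak at an end. Counts by list are descriptions, and no list was tested against the others.

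**Figure D5:**
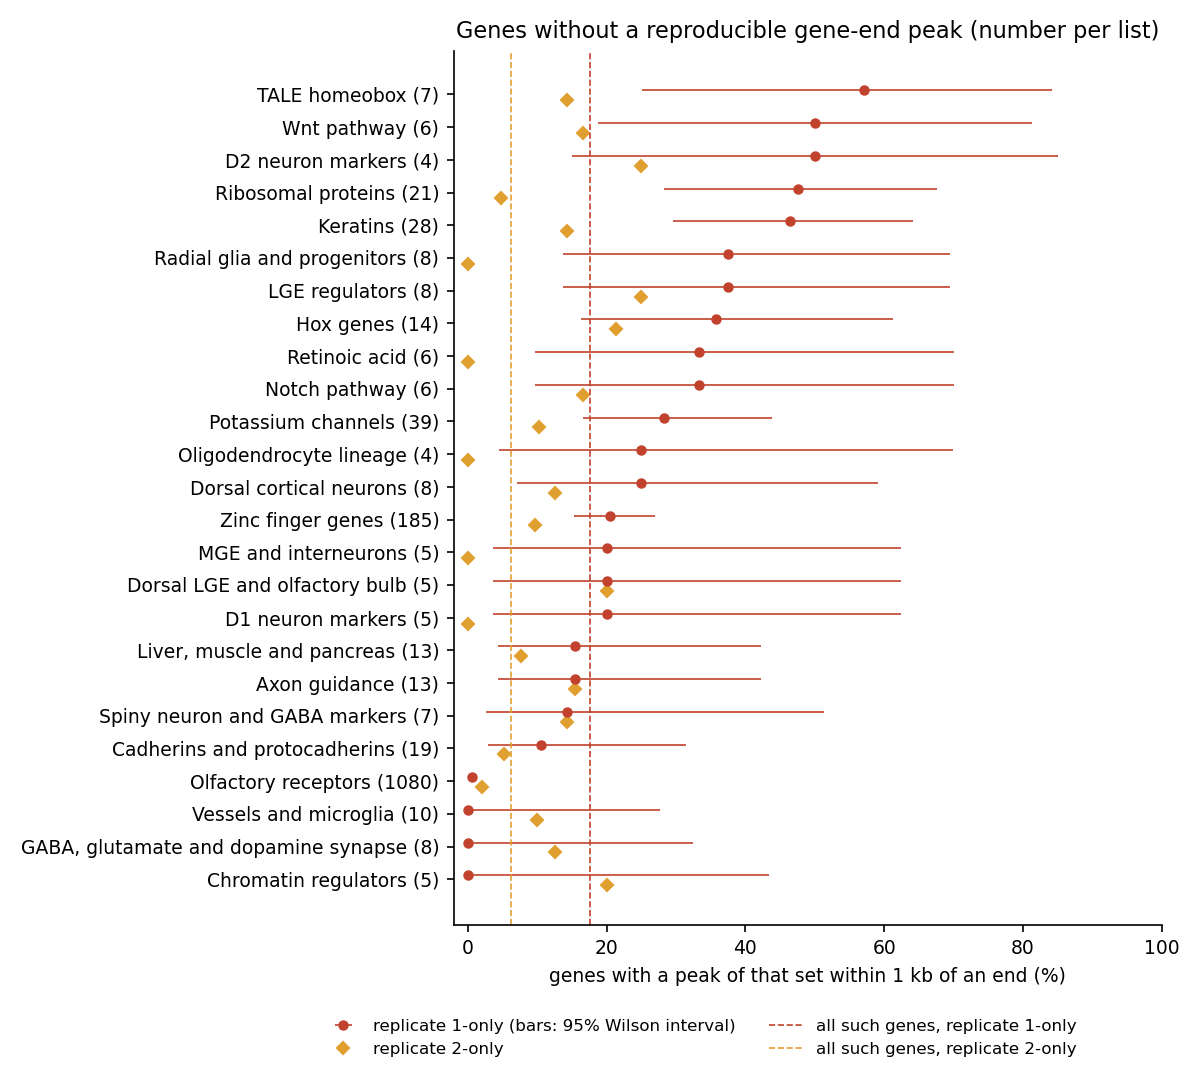
Circles give, for each of 25 lists, the percentage of genes without a reproducible gene-end peak that had a replicate 1-only peak within 1 kb of an end, with 95% Wilson intervals; diamonds give the same for replicate 2-only peaks, and the number of genes is in parentheses. Dashed lines mark all 9552 such genes, 17.6% and 6.28%, of which 1080 are olfactory receptor genes. The intervals of ribosomal protein, keratin, TALE homeobox and Wnt genes lie above the first line, and that of olfactory receptor genes below it. The Wnt interval starts close to the line, at 18.8%. Without the olfactory receptor genes, of which 0.648% gained a peak, the first line would stand higher. Whether the Wnt interval would still lie above it was not tested.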

How the data were processed

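CUT&Tag peaks of 2 MEIS2 libraries and 1 no-antibody library were used, 1 list each, with groups from the labels. Per the file headers, peaks were called per library with MACS 2.2.7.1 without a control, at a q cutoff of 0.05 and with at most 1 tag per position. The submitters' processing notes name mm10, Trimmomatic, Picard, Bowtie2 2.3.4 and MACS2 2.1.4. MACS kept 7618406 of 74259592, 6559629 of 79760948 and 6337375 of 72763762 tags in MEIS2 replicate 1, replicate 2 and the no-antibody library. The signal column the authors deposited is the summit pileup of each library's own tags. Their deposited fold column is a ratio of that pileup to the one expected locally, with 1 added to each. The expected pileup was never below the genome-wide one of the library. The authors also deposited a −log10 p-value and a −log10 q-value for each peak, from MACS and within its library. Strength was compared within replicate 1, and between libraries only set side by side.

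Sets were defined by at least 1 shared base. Distances are bases between peaks. Gene ends come from a RefSeq table of GRCm38.p6, with 1 kb as the limit from summit to either end. Listed promoter starts come from a RefSeq promoter table. Python 3.11.15 with numpy 2.4.6, pandas 2.3.3 and scipy 1.17.1 was used, and interval functions were checked on simulated data. Wilson intervals and order-statistic intervals of medians are at 95%.

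The peak set and the 25 gene lists were chosen with earlier results of these data known. The members named are the 10 of highest fold enrichment, the 5 widest, the 5 farthest from and the 5 closest to replicate 2. The genes named are the 10 gained genes of highest fold enrichment, up to 4 per list, the 5 with most members, Meis2, Dlx1, Dlx2, Dlx5 and Dlx6. Some items that this rule names are not reported here. Other settings were the overlap, the q threshold, the gene-end distance, the sequences used and each comparison list left out. Peaks on X, Y and other sequences were left out of the report.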

Additional observations from a re-analysis of the deposited data

Results flagged for a closer look

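Peaks found in MEIS2 replicate 1 alone also lay on sequences that the comparisons above do not use. Their numbers there were above those of peaks found in the no-antibody library alone, but their shares of their own lists were lower on X and Y. On chromosome X there were 913 of 3870 replicate 1 peaks (23.6%), against 407 of 986 no-antibody peaks (41.3%). On chromosome Y there were 173 of 843 (20.5%), against 137 of 213 (64.3%). On the other sequences there were 79 of 315 (25.1%), against 12 of 69 (17.4%). On chromosomes 1 to 19 the share of replicate 1 peaks was 33.4%.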

How the results depend on the processing

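With 50% reciprocal overlap the gene-end share was 20.3%, the median width 230 bp and the median fold enrichment 5.28. The share within 1 kb of replicate 2 was then 32.4%, raised by construction because partly overlapping peaks count as members. Under that rule 3159 genes gained a gene-end peak. Counting gaps of at most 500 bp as shared gave 16.3% at gene ends, a fold of 5.18 and 6.51% within 1 kb, the last lowered by construction. A −log10 q of at least 5 in all lists gave 23.1% at gene ends, 254 bp, 5.97, 7.90% within 1 kb and 2910 gained genes. That limit also removes replicate 2 peaks, which changes both the distances and the reproducible set. With that threshold in replicate 1 only there were 11671 peaks, with 224 bp, 5.88 and 1002 gained genes. Without MEIS2 replicate 2 the set was every replicate 1 peak clear of the no-antibody list: 69147 peaks, 25.1% at gene ends, 298 bp and 6.09, with no value for gained genes. Without replicate 1 the set does not exist. With gene ends drawn at 500 bp and 2500 bp the share was 11.4% and 28.6%. The number of gained genes stayed within 1.5 times the reported count for all sequences (1767), without the no-antibody list (1675), at both distances (1523 and 1790), by any base of the peak (1658) and by listed starts (1229). No paired analysis was possible because no result comes from a test between groups. The median pileup of the set was 9 tags, and the effect of depth was not tested.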
